A study of Mus musculus with 4 samples.

Results

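In all, 10 genes of the TGF-beta pathway were followed in 4 lung tumors of KP mice, a model of lung adenocarcinoma: the ligands Tgfb1, Tgfb2 and Tgfb3, the receptors Tgfbr1, Tgfbr2 and Tgfbr3, and the signal carriers Smad2, Smad3, Smad4 and Smad7. They were taken by symbol from a table of raw read counts, where each symbol matched 1 row, and make up 10 of its 39017 genes. The table holds 1 group of 4 libraries, called Control in the labels, with 1 library per tumor and no other group, so every comparison here is between genes within the tumors or between the 4 tumors themselves. All 4 were lung tumors of male mice on a C57BL/6 background carrying p53 Fl/Fl, alleles that Cre removes. A labelled genotype of heterozygous fl/wt was also shared by all 4, without a gene name, while the deposited log2 table names the same samples WT. The paper's methods count both wild-type animals and heterozygotes for the floxed Slc2a1 allele as controls. They do not say which of these the 4 tumors were. Tumors were started by 1500 viral units of lenti.PGK-Cre given into the trachea and were collected after 22 weeks and 5 days. PGK is a promoter active in most cell types, so the promoter does not limit Cre to 1 lineage of the lung. The tumors were macrodissected and dissociated to single cells, and RNA was taken from the whole suspension, so that tumor, immune and stromal cells contribute to each value. In such bulk RNA, fewer cells of a type and less RNA per cell cannot be told apart. The labels do not say whether the tumors came from separate mice, and p-values measure only the spread between these 4 libraries.

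TGF-beta ligands are secreted in a latent form and released outside the cell. The active ligand binds the receptor Tgfbr2, which recruits and phosphorylates Tgfbr1; Tgfbr1 then phosphorylates Smad2 and Smad3, which enter the nucleus with Smad4. Smad7 is an inhibitor that blocks the activated receptor, and Tgfbr3 (betaglycan) is a co-receptor that presents ligand. In lung the pathway is known for restraining epithelial growth and for driving the deposition of matrix.

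The windows of 250 bases upstream of the annotated start are printed for 3 genes that mark the extremes described below, namely the ligand that differed most between tumors (Tgfb1), the ligand with the lowest level (Tgfb2) and the receptor with the highest level (Tgfbr1). They are RefSeq sequences on GRCm38.p6, read 5′ to 3′ on the strand of the gene, and capitals mark the motifs that were found. Searched on both strands were the GC box GGGCGG, the TATA box TATAAA, the E-box CACGTG, the palindromic Smad element GTCTAGAC and the cAMP response element TGACGTCA.
Tgfb1, chr7:25686752-25687001, plus strand: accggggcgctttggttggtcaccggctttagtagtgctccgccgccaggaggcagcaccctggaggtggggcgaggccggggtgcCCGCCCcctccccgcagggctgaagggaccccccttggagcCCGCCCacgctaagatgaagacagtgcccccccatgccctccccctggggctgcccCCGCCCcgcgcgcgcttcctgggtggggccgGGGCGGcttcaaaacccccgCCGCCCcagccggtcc
Tgfb2, chr1:186705990-186706239, minus strand: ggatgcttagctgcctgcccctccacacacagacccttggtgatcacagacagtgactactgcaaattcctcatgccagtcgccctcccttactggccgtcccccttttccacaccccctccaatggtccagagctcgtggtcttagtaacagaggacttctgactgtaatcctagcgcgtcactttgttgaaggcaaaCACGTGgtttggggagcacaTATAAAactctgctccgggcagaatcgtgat
Tgfbr1, chr4:47352972-47353221, plus strand: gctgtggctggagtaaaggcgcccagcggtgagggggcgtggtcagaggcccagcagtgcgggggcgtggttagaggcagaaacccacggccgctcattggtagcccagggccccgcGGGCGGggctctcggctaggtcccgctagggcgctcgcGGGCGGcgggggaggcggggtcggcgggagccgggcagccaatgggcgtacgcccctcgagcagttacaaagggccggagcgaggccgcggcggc
The Tgfb1 window was 75.2% G and C and held 5 GC boxes and no TATA box. The Tgfb2 window was 53.6% G and C and held no GC box, but had a TATA box whose first base lies 31 bases before the start and an E-box 51 bases before it; these do not overlap. The Tgfbr1 window was 74.8% G and C and held 2 GC boxes. A second annotated start of Tgfbr1 has a window (chr4:47385966-47386215, plus strand) with 52.8% G and C and none of the 5 motifs. Among 32851 promoter windows of this length, 32.7% held a GC box, 12.4% the TATA box and 6.02% the E-box. The Smad element, present in 0.167% of windows, and the cAMP response element, present in 1.55%, were in none of the 3. A motif in these letters is a description of the sequence and was not tested as a site. Windows were also taken for Tgfbr2 and Smad3, so that 5 of the 10 genes have a window. Tgfb3 and Tgfbr3 had no entry among the promoters and are named only. Smad2, Smad4 and Smad7 are likewise named only, because their promoters were left out of the search. Their lack of a window here does not mean that none is annotated. The background windows do not cover all genes either.

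Depth was even across the libraries. Total counts lay between 8151613 and 8799007, so that 3 counts, the upper limit that a count of 0 allows, correspond to 0.330 to 0.370 CPM (counts per 1e+06, scaled to the TMM-adjusted library size). All 10 genes were above 3 counts in every tumor, and the lowest single value was 66 reads (Tgfb2 in tumor 2). The labelled tissue was checked against marker lists. Alveolar type 2 cell genes summed to between 31528 and 58636 CPM, with the surfactant gene Sftpc between 17722 and 29617 CPM, and the lung lineage factor Nkx2-1, picked after its values were seen, lay between 290 and 396 CPM. The type 2 list had its lowest level in tumor 1, which stood apart from the others on that list.

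The 3 ligands and the co-receptor Tgfbr3 had the lowest mean CPM of the 10 genes, all under 40 CPM in every tumor. Tgfb1, the ligand best known for immune regulation and fibrosis, was at 38.3 CPM in tumor 1 (348 reads, 95% exact Poisson interval 34.4 to 42.5 CPM, counting error only), 19.5 in tumor 2 (168 reads), 13.9 in tumor 3 (113 reads, 11.5 to 16.8) and 20.2 in tumor 4 (170 reads). Tumor 1 was the highest and tumor 3 the lowest, with tumors 2 and 4 close together between them. The mean was 22.99 CPM ± 10.6 (SD, n = 4), and the highest value was 2.75 times the lowest. Tgfb2, which depends most on betaglycan for its binding, was at 8.80, 7.67, 14.7 and 11.9 CPM in tumors 1 to 4 (mean 10.8 ± 3.17). Its highest tumor was tumor 3, the one in which Tgfb1 was lowest, and the interval there (12.2 to 17.6 CPM) did not overlap those of tumors 1 and 2 (6.98 to 11.0 and 5.93 to 9.75). Tgfb3, a ligand with a known part in the branching and repair of epithelia, was at 20.6, 12.1, 13.8 and 16.4 CPM (mean 15.7 ± 3.69). Like Tgfb1 it was highest in tumor 1, but it was lowest in tumor 2.

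The receptors were led by Tgfbr1 in every tumor. Tgfbr1, the type I kinase that passes the signal to the Smads, was at 615, 503, 427 and 356 CPM in tumors 1 to 4 (mean 475 ± 111). Its counts ran from 2994 to 5593 reads, the 95% exact Poisson intervals of the 4 tumors did not overlap, and the highest value was 1.73 times the lowest. Tgfbr2, the type II kinase that binds ligand, was at 159, 199, 136 and 190 CPM (mean 171 ± 29.2). It was highest in tumor 2 and lowest in tumor 3, an order that differs from that of Tgfbr1. Tgfbr3, the co-receptor, was at 14.7, 30.0, 20.5 and 22.1 CPM (mean 21.8 ± 6.28). It was lowest in tumor 1, where Tgfb1 and Tgfbr1 were highest, and its highest value was 2.03 times the lowest.

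The Smads lay in a narrow band between 26.5 and 120 CPM over all tumors. Smad2, a receptor-activated Smad, was at 63.3, 64.2, 70.0 and 52.8 CPM (mean 62.6 ± 7.15). Smad3, the receptor-activated Smad that binds DNA directly, was at 98.0, 120, 79.97 and 85.6 CPM (mean 95.8 ± 17.6). Smad4, the partner shared with the BMP branch, was at 75.3, 88.5, 72.2 and 69.7 CPM (mean 76.4 ± 8.38), with the smallest SD of log2 CPM of the 10 genes (0.15). Smad3 and Smad4 were both highest in tumor 2. Smad7, the inhibitory Smad, was at 43.2, 38.8, 26.5 and 40.0 CPM (mean 37.1 ± 7.31). Tumor 3 was its lowest, and the other tumors lay between 38.8 and 43.2 CPM.

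**Figure D1:**
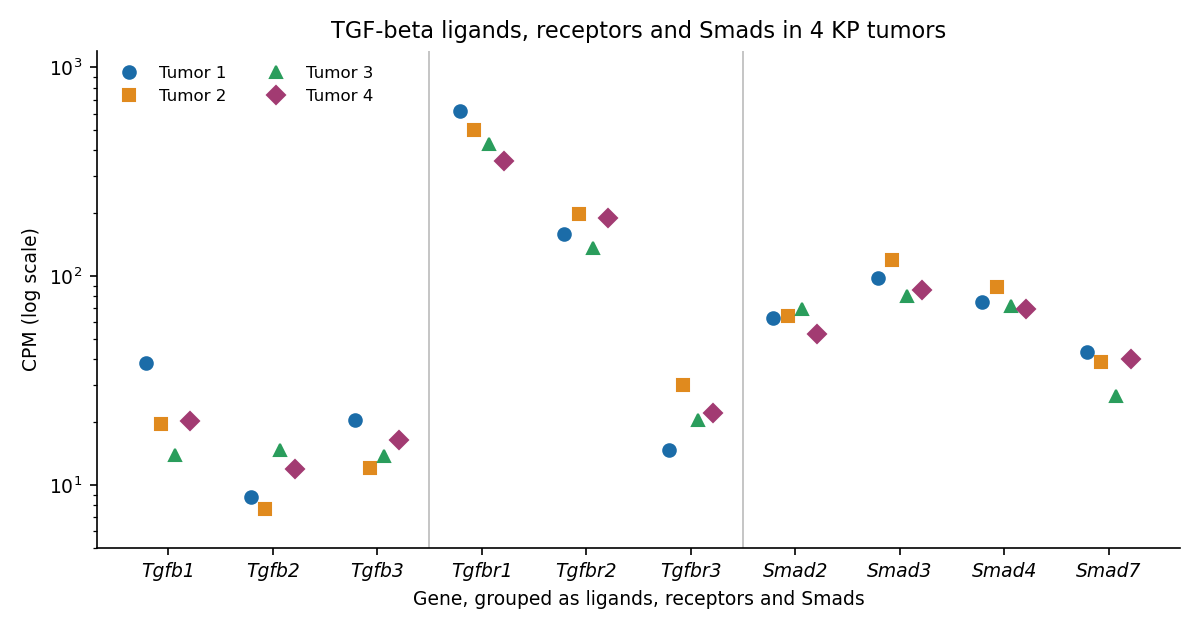
CPM (log scale) of the 10 genes in each tumor, 1 symbol per tumor and no averaging. Tgfbr1 lay between 356 and 615 CPM, above the other 9 genes in all tumors, and Tgfb1 showed the widest range, from 13.9 CPM in tumor 3 to 38.3 in tumor 1.

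Spread between tumors was then set against counting noise. For each gene a chi-square test compared the 4 counts with those expected from library size alone, with Benjamini-Hochberg adjustment over 14225 genes at a mean CPM of at least 1. All 10 genes varied beyond counting noise, as did 76.7% of all genes tested and 85.3% of those at a mean of at least 10 CPM, the range in which the 10 genes lie. The count for the 10 is therefore near what abundant genes gave in general, and it sets them apart from nothing. Adjusted p-values ran from 2.6e-04 for Smad2 to 2.5e-144 for Tgfbr1, a range that follows the read count as well as the spread. Each of 4 calls rested on 1 tumor: Tgfb3 had an adjusted p of 0.0858 without tumor 1, Smad4 of 0.438 without tumor 2, Smad7 of 0.377 without tumor 3 and Smad2 of 0.195 without tumor 4.

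By size of the spread, Tgfb1 stood first among the 10, with an SD of log2 CPM of 0.61, larger than that of 83.4% of the genes tested. Tumor 1 carried much of it, and the SD was 0.29 without that tumor. Tgfb2 and Tgfbr3 followed (0.42 each), then Tgfbr1 (0.34), Tgfb3 (0.33), Smad7 (0.31), Smad3 (0.26), Tgfbr2 (0.25), Smad2 (0.17) and Smad4 (0.15). Without the tumor that lay farthest out, the SD was 0.15 for Smad3, 0.08 for Smad2 and for Smad7, and 0.06 for Smad4. The median over the 10 genes was 0.32, against 0.29 over all genes tested, and 6 of the 10 were above that median. The biological coefficient of variation from edgeR leaves out counting noise but draws each gene toward a trend over genes of like level. It is therefore not the spread of each gene alone. Its median was 23.4% over the 10 and 25.7% over all genes tested. Tgfb1 and Tgfbr3 differed by more than 2-fold between their highest and lowest tumor, as did 28.5% of all genes tested. In none of the 10 was 1 tumor set apart by Dixon's test, which marked 5.86% of all genes tested.

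No tumor was high for the whole pathway. Tumor 1 was the highest for 4 of the 10 genes (Tgfb1, Tgfb3, Tgfbr1 and Smad7), tumor 2 for 4 (Tgfbr2, Tgfbr3, Smad3 and Smad4), tumor 3 for 2 (Tgfb2 and Smad2) and tumor 4 for none. Over all genes tested, tumor 1 was the highest for 31.4%, tumor 2 for 20.4%, tumor 3 for 30.2% and tumor 4 for 18.0%.

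To compare genes with each other, CPM was divided by the length of all annotated exons of the gene in kilobases. On this scale Tgfbr1 was at 72.8 CPM per kb ± 17.0 (SD, n = 4), more than 95.5% of the genes tested. Tgfbr2 (20.9 ± 3.57), Smad4 (20.6 ± 2.26) and Smad3 (17.3 ± 3.17) came next, followed by Smad7 (8.21 ± 1.62) and Smad2 (7.13 ± 0.814). The median gene tested was at 6.60 CPM per kb. Below it were Tgfb3 (4.65 ± 1.09), Tgfb1 (4.56 ± 2.10), Tgfbr3 (3.34 ± 0.960) and Tgfb2 (1.86 ± 0.547), so that on this scale all 3 ligands and the co-receptor lay under the median and the signaling receptors and Smads above it. The place of Tgfb1 depends on its annotated length, which is 5042 nt for the union of exons, 2573 nt for the longest transcript and 2175 nt for the basic transcript set. Its mean level was 8.94 CPM per kb with the longest transcript and 10.6 with the basic set, against a median gene of 8.85 and 8.95 under the same lengths, so that Tgfb1 was then just above the median. Smad7 and Smad2, above the median with the exon union, were below it under both of these lengths (48.5 to 49.5% and 44.2 to 46.1% of genes lay below them). The level of each of the other 9 genes was at most 1.14 times its exon-union level under these lengths.

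**Figure D2:**
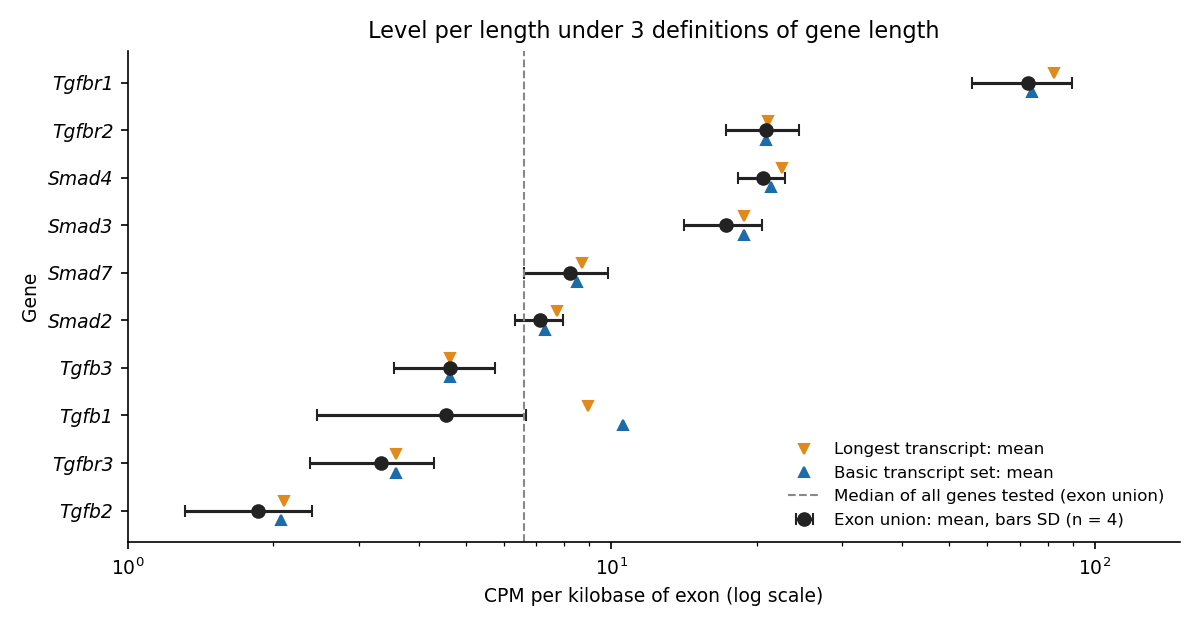
Mean level per length of the 10 genes in CPM per kb (log scale), with the exon union as length (black, bars SD, n = 4 tumors), the longest transcript (orange) and the basic transcript set (blue). Levels run from 1.86 (Tgfb2) to 72.8 CPM per kb (Tgfbr1), the dashed line is the median gene tested at 6.60 with the exon union, and the symbols part clearly for Tgfb1 alone, at 4.56, 8.94 and 10.6.

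Differences in level between the genes were taken within each tumor, as log2 of CPM per kb, and tested with a two-sided exact permutation test that flips their signs. Across the 45 pairs, 39 had the same gene higher in 4 of 4 tumors. The smallest p this design allows is 0.125, and the smallest value after Benjamini-Hochberg adjustment over the 45 pairs was 0.144, so that no pair could pass 0.05 and each difference is given with its SD. Among receptors, Tgfbr1 exceeded Tgfbr2 by 1.79 ± 0.45 on the log2 scale (3.45-fold, SD over 4 tumors) and Tgfbr3 by 4.46 ± 0.64 (22.0-fold), and Tgfbr2 exceeded Tgfbr3 by 2.67 ± 0.34, each in 4 of 4 tumors. Among Smads, Smad4 exceeded Smad3 by 0.26 ± 0.13, Smad2 by 1.53 ± 0.19 and Smad7 by 1.34 ± 0.31, and Smad3 exceeded Smad2 by 1.27 ± 0.30, again in 4 of 4 tumors. Smad7 and Smad2 did not differ beyond their spread (0.19 ± 0.44, Smad7 higher in 3 of 4 tumors). Among ligands, Tgfb1 exceeded Tgfb2 by 1.24 ± 0.92, from 0.13 in tumor 3 to 2.31 in tumor 1 (mean 2.03 with the longest transcript and 2.29 with the basic set), and Tgfb3 exceeded Tgfb2 by 1.34 ± 0.54, both in 4 of 4 tumors. Tgfb3 minus Tgfb1 was 0.10 ± 0.39 and positive in 2 of 4 tumors. That last sign turned with length: with the longest transcript the difference was -0.87 and with the basic set -1.11, Tgfb1 then being higher in 4 of 4 tumors. With the exon union it also turned when tumor 3 was left out (-0.052). In the order of all 10 genes, 5 of 9 neighboring pairs had a mean difference larger than its SD and the same gene higher in 4 of 4 tumors. The neighbors that did not were Tgfbr2 and Smad4, Smad7 and Smad2, Tgfb3 and Tgfb1, and Tgfb1 and Tgfbr3. For the last pair Tgfb1 minus Tgfbr3 was 1.26 with the longest transcript and 1.503 with the basic set, with Tgfb1 higher in 4 of 4 tumors under both.

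The make-up of each role was then taken per tumor as the share of the summed CPM per kb. Tgfb1 made up 49.97%, 44.2%, 29.5% and 36.7% of the ligands in tumors 1 to 4 (mean 40.1% ± 8.91), and Tgfb2 made up 10.0025%, 15.1%, 27.0% and 18.8% (17.7% ± 7.16). The share of Tgfb3 was steadier, at 42.2% ± 2.13. The lower the share of Tgfb1 in a tumor, the higher was that of Tgfb2, as shares that sum to a constant tend to be. With the longest transcript as length, the mean share of Tgfb1 was 55.4% and that of Tgfb3 30.1%. Tgfbr1 made up 81.3%, 72.7%, 76.8% and 67.2% of the receptors (74.5% ± 6.01), with 22.0% ± 5.12 for Tgfbr2 and 3.53% ± 1.09 for Tgfbr3. The ratio of Tgfbr1 to Tgfbr2 was 4.86, 3.16, 3.94 and 2.35 in tumors 1 to 4. Smad4 made up 38.7% of the Smads on average, Smad3 32.3%, Smad7 15.4% and Smad2 13.5%. The ratio of Smad3 to Smad2 was 2.46, 2.95, 1.81 and 2.57. The inhibitor Smad7 stood at 0.384, 0.297, 0.262 and 0.412 of the sum of Smad2 and Smad3. Summed receptors were 7.62, 12.1, 9.06 and 7.43 times summed ligands, and 4.64, 7.68, 6.49 and 5.01 times with the basic set as length. These ratios are of RNA per length and say nothing of protein or of active ligand.

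**Figure D3:**
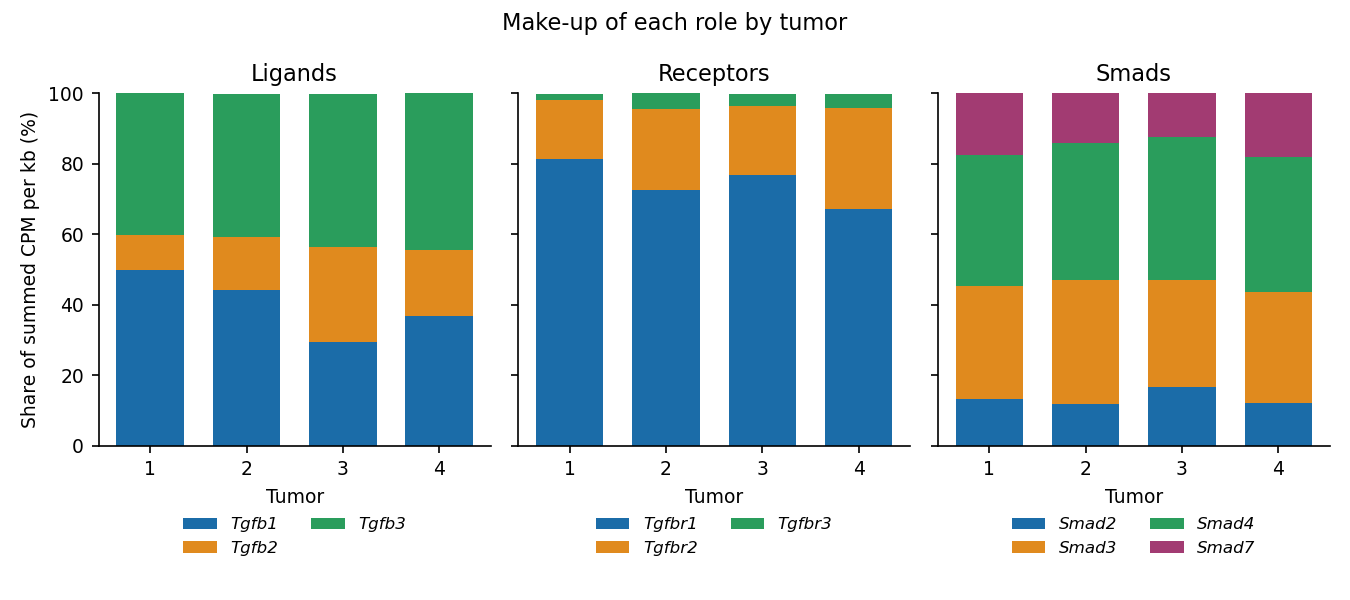
Share (%) of the summed CPM per kb held by each gene within ligands, receptors and Smads, 1 bar per tumor. The Tgfb1 share ran from 29.5% in tumor 3 to 49.97% in tumor 1 while Tgfb3 stayed near 42.2%, and Tgfbr1 held between 67.2% and 81.3% of the receptors.

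Annotated overlaps and near-identical copies were looked up for each gene. Tgfb1, Tgfbr1 and the 4 Smads shared no exon with another annotated gene. Tgfb2 shares 124 nt of exon with an antisense RNA (Gm29491), Tgfb3 163 and 257 nt with genes on the opposite strand (Gm37804 and Gm48008) and Tgfbr3 297 nt with a gene on the same strand (Gm43422). The strand setting of the counting was not given in the sources used here, so reads of these stretches cannot be assigned to a strand. Tgfbr2 has a stretch of 92 nt with 97.8% identity to Tmco3.

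Within the wider TGF-beta superfamily, Tgfbr1 and Tgfbr2 ranked high, Tgfbr3 lower and the 3 ligands in the middle. Tgfbr1 ranked 1 of 13 listed receptors in 4 of 4 tumors on the scale of CPM per kb, ahead of the BMP receptor Bmpr1a (30.8 ± 5.30), which ranked 2 in 4 of 4. Tgfbr2 ranked 3 or 4, level with the activin receptor Acvr1b (19.4 ± 2.34), and Tgfbr3 ranked 8 to 10. Among 17 listed ligands, Bmp4 was first in 4 of 4 tumors at 87.2 CPM per kb ± 24.7, followed by Inhbb, a subunit of activin (18.7 ± 2.85), and Bmp5 (14.4 ± 5.54). Tgfb3 and Tgfb1 each ranked 4 to 6, and Tgfb2 ranked 7 or 8. Nodal and Mstn (myostatin) had no read in any tumor, which allows up to 0.370 CPM, and Inha had 3 counts or fewer in each. Among the 8 Smads, the BMP-activated Smad5 was first in 4 of 4 tumors (24.7 ± 3.12), Smad4 ranked 2 and Smad3 ranked 3 in 4 of 4, and Smad7 and Smad2 ranked 4 to 6. The ranks were computed with the exon union as length alone.

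**Figure D4:**
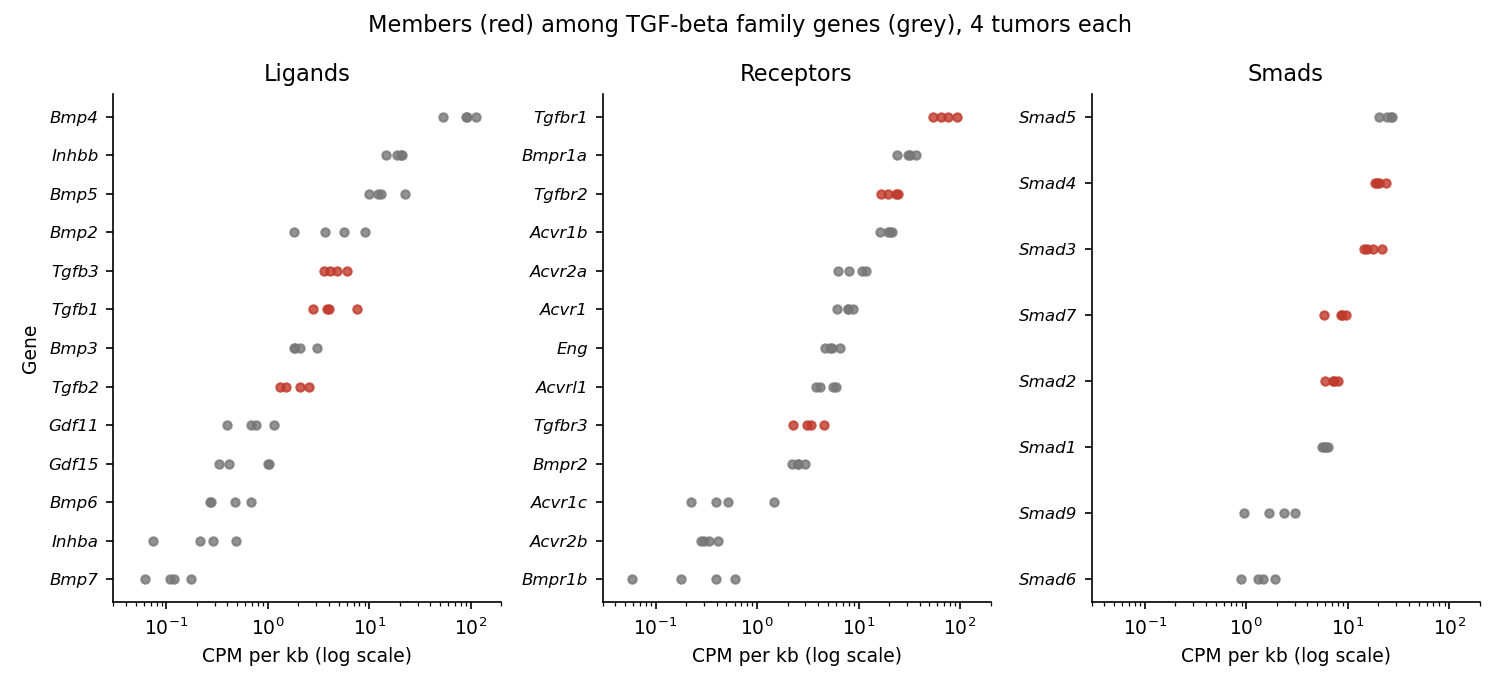
CPM per kb (log scale) in each of the 4 tumors for listed ligands, receptors and Smads of the superfamily, with the 10 genes in red and genes at a mean under 0.1 CPM per kb left out. Tgfbr1 led the receptors, whereas Bmp4 at 87.2 led the ligands with the 3 TGF-beta ligands between 1.86 and 4.65.

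Other components of the pathway were read from lists by role, and each count is given beside the 76.7% of all genes that varied beyond counting noise. That share was 85.3% for genes at a mean of at least 10 CPM, and the lists differ in level. Of 14 genes that hold or release latent ligand, 11 varied, with a median SD of log2 CPM of 0.28. Thbs1 (thrombospondin 1, an activator of latent TGF-beta) was at 540, 287, 390 and 500 CPM, lowest in tumor 2. Bmp1, a protease that acts on latent complexes, was at 196 ± 17.2 CPM. Furin, which cleaves the ligand precursor, was at 132, 85.5, 56.5 and 78.9 CPM, highest in tumor 1 and lowest in tumor 3 as Tgfb1 was. Itgb8, an integrin subunit that activates the ligand, was at 1.36 ± 0.419 CPM and did not pass the test (adjusted p 0.398).

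Of 18 intracellular regulators, 18 varied, with a median SD of 0.25. The lowest mean among them was 12.3 CPM (Tgif2), so the share to set beside this count is 85.3%. Fkbp1a, which binds Tgfbr1 and keeps it inactive, was at 342 ± 38.2 CPM, and Strap, a receptor-associated inhibitor, at 203 ± 15.0 CPM. Bambi, a decoy receptor, was at 22.997, 61.1, 29.6 and 39.0 CPM, highest in tumor 2 and lowest in tumor 1, as was Tgfbr3. Tgif2, a repressor that binds Smads, was at 16.5, 14.9, 1.85 and 15.8 CPM, with tumor 3 far below the others. Tgif2 shares exon sequence with 2 annotated genes.

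Of 12 extracellular antagonists and ligand-binding proteins, 10 were tested and 7 varied, with a median SD of 0.71. Bgn (biglycan) was at 402, 1268, 239 and 612 CPM and Dcn (decorin), which also binds TGF-beta, at 37.3, 57.4, 138 and 65.2 CPM, so that tumor 2 was the highest for one proteoglycan and tumor 3 for the other. Chrd (chordin) was at 1.78 ± 1.15 CPM, and Cer1 had no read. Of 14 other ligands of the superfamily, 9 were tested and 9 varied. Bmp2 was at 20.2, 13.1, 6.42 and 32.6 CPM and Inhba, an activin subunit, at 1.69 ± 1.09 CPM. Of 14 other receptors and Smads, 12 varied, and the widest spreads were those of Bmpr1b (1.85 ± 1.45 CPM) and Acvr1c (13.5, 2.09, 3.70 and 4.76 CPM), both highest in tumor 1.

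Of 20 genes known to respond to TGF-beta in various cells, 18 varied, with a median SD of 0.42 against 0.29 over all genes tested. Fn1 (fibronectin) was at 1314, 958, 593 and 518 CPM, highest in tumor 1. Acta2 (smooth muscle actin) was at 300, 99.0, 372 and 106 CPM, high in tumors 1 and 3 and low in tumors 2 and 4. Id2, a gene known to be repressed by TGF-beta in epithelia, was at 430, 654, 441 and 545 CPM, and Hmga2, a chromatin protein, at 5.502, 16.5, 2.34 and 7.49 CPM, both highest in tumor 2. The targets named here did not share 1 order of tumors. Snai1 and Snai2, repressors of epithelial genes, were picked after their values were seen. They did not pass the test (adjusted p 0.0555 and 0.930) and were at 1.46 and 1.32 CPM. Zeb1 and Zeb2, other such repressors on the list and also named afterwards, did pass the chi-square test (adjusted p 2.1e-06 and 9.5e-13). Their means were 13.5 and 21.9 CPM, and both were highest in tumor 3. With 4 tumors no correlation between a target and the ligands was computed.

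Markers of the cell types that a dissociated tumor can hold moved between the tumors as well. Counts of varied markers are to be read beside 76.7% of all genes tested and 85.3% at a mean of at least 10 CPM. Epithelial markers (7 of 7 varied) summed to 4832, 3120, 3001 and 3291 CPM. Their mean log2 CPM lay 0.50 above its mean in tumor 1 and 0.14, 0.31 and 0.04 below it in tumors 2, 3 and 4, and the deviations of Tgfb1 were 0.84, -0.13, -0.62 and -0.08. Pan-leukocyte markers, 6 genes that all varied, had summed levels of 124, 150, 292 and 170 CPM. They were lowest in tumor 1 and highest in tumor 3, where the epithelial markers as a list were highest and lowest. Of the 7 epithelial markers, 5 were highest in tumor 1. Cdh1 (842, 887, 846 and 876 CPM) and Nkx2-1 (290, 306, 291 and 396 CPM) were lowest there. Only 2 of the 7 were lowest in tumor 3. In tumor 3, Tgfb1 and Smad7 were also at their lowest and Tgfb2 at its highest. Macrophage markers (8 of 8 varied) summed to 217, 232, 321 and 233 CPM and endothelial markers (8 of 8) to 291, 287, 360 and 273 CPM, both sums highest in tumor 3. Of the 8 genes in each list, 5 were highest in tumor 3. The macrophage markers C1qa (38.6, 41.9, 25.7 and 30.4 CPM) and C1qb (42.4, 47.6, 36.8 and 40.2 CPM) were lowest there. Fibroblast markers (7 of 7 tested) summed to 481, 342, 357 and 372 CPM, highest in tumor 1, whereas their mean log2 CPM (4.49, 4.46, 4.82 and 4.54) was highest in tumor 3. Smooth muscle and pericyte markers (5 of 6 tested) summed to 134, 126, 154 and 123 CPM. The sum of the type 2 cell markers (8 of 8 varied) was lowest in tumor 1 at 31528 CPM, where Tgfbr1 and Tgfb1 were highest and Tgfbr3 lowest. It was between 51367 and 58636 in the others. Singly, 6 of the 8 were lowest in tumor 1, whereas Sftpb (8261, 11840, 6601 and 10400 CPM) and Abca3 (876, 1134, 759 and 1066 CPM) were lowest in tumor 3. The part of these markers in the levels of the 10 genes was not tested.

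The remaining lists were small or ran in other orders. Type 1 cell markers (6 of 6) summed to between 1097 and 1969 CPM, airway markers (5 of 6) to 53.9 CPM in tumor 1 and between 549 and 907 in the others, and mesothelial markers (2 of 2 tested) to between 19.6 and 111 CPM. Scgb1a1 alone was at 9.79 CPM in tumor 1 and between 450 and 736 in the others. Of the 6 airway markers, 4 were lowest in tumor 1, whereas Ccdc39 was highest there (5.17 CPM). Neutrophil markers (5 of 5) summed to between 27.5 and 66.6 CPM, T cell markers (3 of 4 tested) to between 6.90 and 23.9 CPM and B and plasma cell markers (1 of 1 tested, Jchain) to between 4.84 and 37.3 CPM, with Tnfrsf17 at 3 counts or fewer. Platelet genes (2 of 2 tested) summed to 202 CPM in tumor 2, of which Pf4 made up 199, and to between 21.2 and 33.3 CPM in the others, with Gp9 and Gp1ba at 0 reads in all 4. Genes induced by dissociation (7 of 8 varied) summed to between 139 and 175 CPM.

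**Figure D5:**
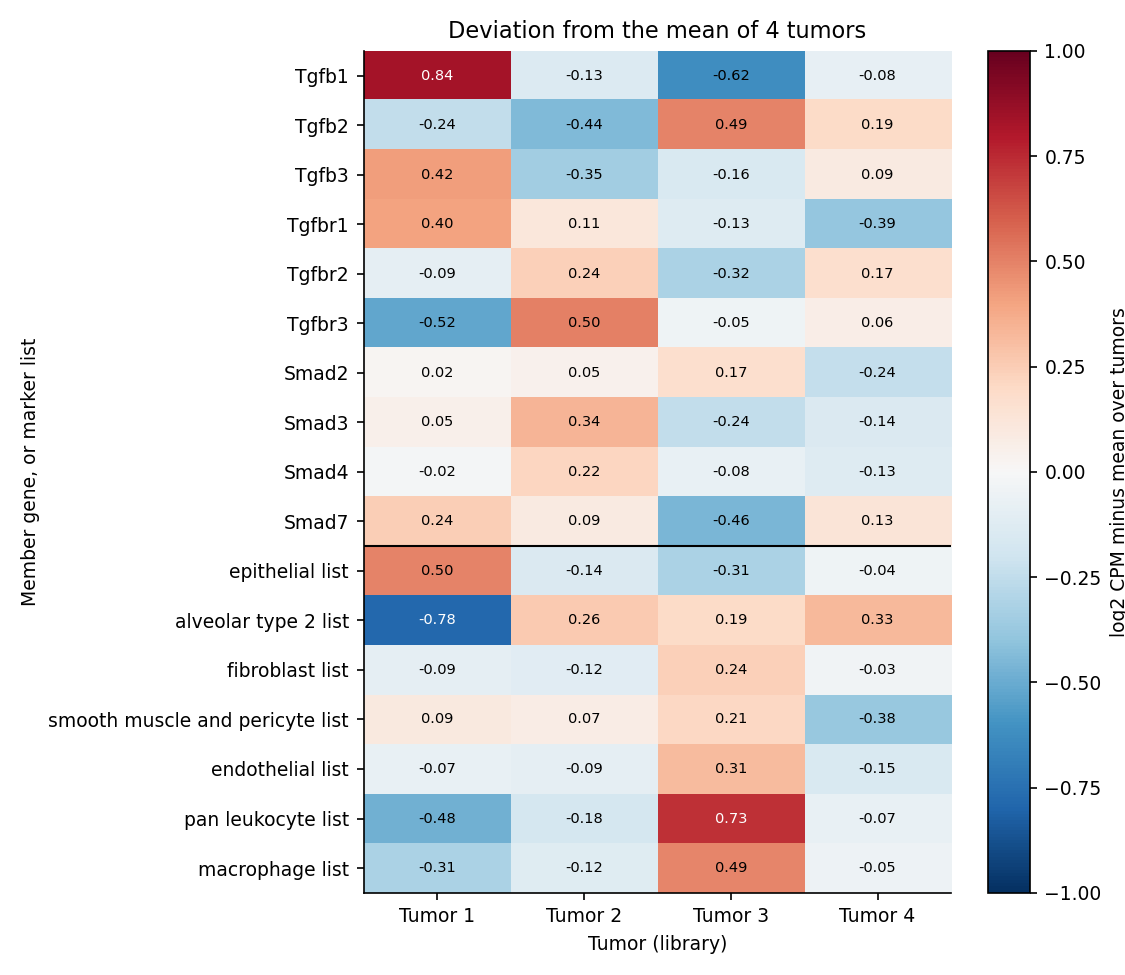
Deviation of log2 CPM from its mean over the 4 tumors for the 10 genes (above the line) and of the mean log2 CPM of 7 marker lists (below it), 1 column per tumor, red higher and blue lower. In tumor 1 Tgfb1 (0.84) and the epithelial list (0.50) were high and Tgfbr3 (-0.52) and the type 2 list (-0.78) low, and in tumor 3 the leukocyte list (0.73) was high and Tgfb1 (-0.62) low.

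Genes whose pattern over the 4 tumors was most like that of the 3 most variable members were listed by the root mean square distance of centered log2 CPM, among 9870 protein-coding genes at a mean of at least 10 CPM. Nearest to Tgfb1 were Dctpp1 (distance 0.05), Ruvbl2 (0.05) and Rai1 (0.06), and 14 genes lay within 0.1. Nearest to Tgfb2 were Ankrd44 (0.03), Naaa (0.05) and Zcchc7 (0.05), with 23 genes within 0.1. Nearest to Tgfbr3 were Fsd1l (0.03), Galnt4 (0.04) and Tsga10 (0.04), with 28 genes within 0.1. With 4 tumors many genes share a pattern by its shape alone, so these names are a description.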

How the data were processed

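RNA from 4 tumors (TruSeq stranded mRNA, single-end reads on a NextSeq 500) was trimmed with cutadapt, aligned to mm10 with HISAT2 and counted with featureCounts 1.4.4 (submitters' processing notes). The strand setting and annotation release are not given in the sources used here. The authors deposited raw counts per gene, used here, and a log2 table normalised with TMM and voom, used as an alternative only. Counts in the combined and single tables were equal for 156068 of 156068 values. Totals were 8151613 to 8799007.

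CPM used TMM sizes from edgeR 4.0.16, and log2 CPM added 0.5 to each count. Lengths are from GENCODE on GRCm38. Spread was tested by chi-square against Poisson counts (14225 genes, Benjamini-Hochberg), member pairs by exact sign-flip permutation. The chi-square test was checked on simulated Poisson counts, the permutation test only on typed examples. Members and lists (204 genes in 24 lists) were chosen with earlier results of these data known. All 10 members are named, and from each list the 2 genes highest in mean CPM, the 2 with the largest SD and those at 3 counts or fewer; marker lists are given as sums. Alternatives were DESeq2 1.42.0 size factors, library size, other filters, prior counts, lengths and statistics, the log2 table and leaving out each tumor. One allele of the model and 1 listed target gene are not reported here.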

Additional observations from a re-analysis of the deposited data

Results flagged for a closer look

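Of 115 values examined by Dixon's test over the 4 tumors, 9 had 1 tumor far from the others, where chance gives about 5.75 at 5%. None of the 10 TGF-beta pathway genes was among them. In tumor 3, Itgb8 was low at 0.740 CPM (6 reads against 13 to 15, not beyond counting noise by the chi-square test, adjusted p 0.398) and Tgif2 low at 1.85 CPM, the endothelial markers were high at a mean log2 CPM of 5.17 and the T cell markers high at 1.88. The T cell mean rests on 4 of 9 listed genes at low counts. Of these 4, 3 were highest in tumor 3, among them Cd2 (102 reads against 7 to 18), and Lck was lowest there (2.34 CPM). In tumor 1, Lamp3 was low at 420 CPM and Scgb1a1 low at 9.79 CPM, and the mean log2 CPM was low for the alveolar type 2 markers (10.35) and the airway markers (2.38). Singly, 6 of 8 type 2 markers and 4 of 6 airway markers were lowest in tumor 1, and the airway marker Ccdc39 was highest there. In tumor 2, Fosb was low at 0.581 CPM (5 reads against 13 to 16, likewise not beyond counting noise, adjusted p 0.168).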

How the results depend on the processing

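No paired analysis was possible because the series has 1 group. All 10 genes varied beyond counting noise under DESeq2 size factors, library size alone, no filter, a filter at 10 CPM and the likelihood-ratio statistic, and 9 of 10 without each tumor in turn (8807 to 10244 of all genes, against 10905 with all 4). The median biological coefficient of variation over all genes was 17.9% from gene-wise estimates of DESeq2 and 25.7% from edgeR. The common value from edgeR, which is not a median, was 30.8% (26.8 to 34.5% without 1 tumor). The medians are of unlike estimates, as the edgeR values are drawn toward a trend over genes and the gene-wise DESeq2 values are not. How much of the difference this makes up was not tested. The SD of Tgfb1 was 0.60 in the deposited log2 table and with 2 added to each count, and 0.55 to 0.74 without tumor 2, 3 or 4.

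The order around Tgfb1 depended on length, through the shorter length itself, and in part on the tumors included. Tgfb3 minus Tgfb1 (log2) was -0.87 with the longest transcript and -1.11 with the basic set, chosen after the data were seen, and -0.052 without tumor 3. Smad2 minus Tgfb1 was -0.12 and -0.45 with those lengths, and Smad7 minus Tgfb1 -0.24 with the basic set. Tgfb1 minus Tgfb2 was 2.03 and 2.29. The Tgfb1 share was 55.4% and 59.5%, and that of Tgfb3 30.1% and 27.4%. Tgfb1 minus Tgfbr3 ranged from -0.057 without tumor 1 to 0.607 without tumor 2, and was 1.26 and 1.503 with those lengths. Tgfbr2 minus Smad4 ranged from -0.089 without tumor 4 to 0.0898 without tumor 3 and was -0.11 with the longest transcript and -0.045 with the basic set.

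Leaving out 1 tumor at a time gave these ranges of same-role differences (log2): Smad3 minus Smad2 1.17 to 1.41, Smad3 minus Smad7 1.00 to 1.17, Smad4 minus Smad2 1.47 to 1.61, Smad4 minus Smad3 0.21 to 0.30, Smad4 minus Smad7 1.21 to 1.43, Smad7 minus Smad2 0.07 to 0.40, Tgfb1 minus Tgfb2 0.88 to 1.61, Tgfb3 minus Tgfb1 -0.05 to 0.24, Tgfb3 minus Tgfb2 1.12 to 1.55, Tgfbr1 minus Tgfbr2 1.62 to 1.97, Tgfbr1 minus Tgfbr3 4.15 to 4.61, Tgfbr2 minus Tgfbr3 2.53 to 2.76. Shares within a role (%) ranged as follows: Smad2 12.4 to 14, Smad3 31.3 to 33, Smad4 38.1 to 39.3, Smad7 14.6 to 16.5, Tgfb1 36.8 to 43.6, Tgfb2 14.6 to 20.3, Tgfb3 41.4 to 42.9, Tgfbr1 72.3 to 76.9, Tgfbr2 19.7 to 23.7, Tgfbr3 3.26 to 4.06.

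The 4 tumors limit every comparison: the smallest adjusted p of a pair was 0.144. Tgfb2 had the fewest reads of the 10 genes, 66 to 119 per tumor.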
